A study of Saccharomyces cerevisiae with 15 samples.

Results

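The genes that carry sugar carbon from glucose to ethanol, glycerol and acetate in budding yeast, together with the pair of enzymes that run only in gluconeogenesis, were followed across 15 RNA-seq libraries of Saccharomyces cerevisiae. The set was taken by gene name and holds 36 of the 6659 named entries of the table: 3 hexose kinases, 14 genes of the steps from glucose 6-phosphate to pyruvate, 3 pyruvate decarboxylases, 5 alcohol and 5 aldehyde dehydrogenases, 2 glycerol-3-phosphate dehydrogenases, 2 acetyl-CoA synthetases, and the gluconeogenic genes PCK1 and FBP1. All libraries came from haploid cells of the BY4741/2 background, auxotrophic for histidine, leucine and uracil, grown in the glucose medium YPDextrose to mid-log phase at an optical density of 0.4 to 0.7. There were 11 genotypes. Wild type had 2 libraries (numbered 1 and 3), and so had the deletions of htz1, which encodes the histone variant H2A.Z, of xrn1, which encodes the cytoplasmic 5′ to 3′ RNA exonuclease, and of upf1, also called NAM7, an RNA helicase of nonsense-mediated decay. The other 7 genotypes had 1 library each: the deletion of swr1, the ATPase of the complex that places H2A.Z in chromatin, the double deletions swr1 xrn1, swr1 upf1, htz1 xrn1 and htz1 upf1 (the last is labelled htz1/upf11), the damp allele of the RNA helicase gene prp43, called prp43 DAmP here, and that allele with the htz1 deletion. A damp allele lowers the level of an essential gene's mRNA by a changed 3′ end, so the prp43 libraries still held PRP43 transcript. Levels are given throughout in RPKM, reads scaled by gene length and by library size. The labels do not say whether the libraries of a genotype are from different cultures. The p-values therefore cover the spread among libraries, and that spread may be technical only.

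Glycolysis turns glucose into pyruvate, and a yeast cell growing on glucose sends most of that pyruvate through pyruvate decarboxylase and alcohol dehydrogenase to ethanol, even in air. Several steps are served by more than 1 gene: a major isozyme, taken here as the main one on glucose, and minor isozymes. Some minor isozymes are known for their rise when glucose runs out or under stress. The label minor does not mean this for every gene or that the gene is low, and TDH2 and ENO1 were high here. GPD1, counted as major, is itself known as a form of osmotic stress. Gluconeogenesis reverses the path when cells live on ethanol or acetate; its dedicated enzymes, phosphoenolpyruvate carboxykinase (PCK1) and fructose-1,6-bisphosphatase (FBP1), are known to be repressed by glucose. The activator Gcr1 binds the short element CTTCC before many glycolytic genes, and stress-response elements with the letters CCCCT lie before many genes that the factors Msn2 and Msn4 activate.

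Some isozymes are so alike that their reads can be shared, and how the authors' counting treated such reads is not stated in the sources used here. Sequences below are from the reference genome R64, the same assembly as sacCer3. The first 60 coding bases of ADH1 (minus strand, chrXV:160535-160594) and ADH2 (minus strand, chrXIII:874278-874337) differ at 7 bases and those of TDH3 (minus strand, chrVII:883751-883810) and TDH2 (minus strand, chrX:454622-454681) at 1 base. Capitals mark the bases that differ within each pair.
ADH1: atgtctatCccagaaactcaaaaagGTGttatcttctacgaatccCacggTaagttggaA
ADH2: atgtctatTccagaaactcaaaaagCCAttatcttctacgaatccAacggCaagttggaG
TDH3: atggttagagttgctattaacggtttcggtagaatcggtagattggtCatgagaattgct
TDH2: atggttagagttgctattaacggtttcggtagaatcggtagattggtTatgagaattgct
Over the whole coding sequence ADH1 and ADH2 were 88.8% identical, with an unbroken identical run of 189 bases, and TDH3 and TDH2 were 95.8% identical, with a run of 173 bases. Of all 50-base windows of the gene, 31.3% in TDH2, 24.4% in TDH3, 15.7% in TDH1, 23.6% in ENO1 and in ENO2, 14.03% in ADH1 and in ADH2, 40.4% in ALD2 and in ALD3 and 0.974% in PDC1 and in PDC5 occurred again elsewhere in the genome. No window of the other members did. Values of those 11 genes, above all the lower gene of a pair, are therefore uncertain by the reads that the authors' counting could have moved between copies. GLK1 overlaps the frame YCL042W, and without a stated strand setting their reads cannot be told apart.

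The windows of 300 bases that start 600 bases before the start codon of PGK1, ENO2 and HXK1 are shown as examples of members that moved in opposite directions without XRN1 on the deposited values. Capitals mark CTTCC in PGK1 and ENO2 and CCCCT in HXK1, on either strand, so that GGAAG and AGGGG are the same elements read from the other strand.
PGK1, chrIII:137146-137445, plus strand: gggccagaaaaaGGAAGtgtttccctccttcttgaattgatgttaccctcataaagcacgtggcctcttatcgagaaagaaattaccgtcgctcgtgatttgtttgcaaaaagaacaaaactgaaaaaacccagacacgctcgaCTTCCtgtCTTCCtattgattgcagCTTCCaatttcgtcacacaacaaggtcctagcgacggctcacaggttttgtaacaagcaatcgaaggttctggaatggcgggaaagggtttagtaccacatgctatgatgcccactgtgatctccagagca
ENO2, chrVIII:450727-451026, plus strand: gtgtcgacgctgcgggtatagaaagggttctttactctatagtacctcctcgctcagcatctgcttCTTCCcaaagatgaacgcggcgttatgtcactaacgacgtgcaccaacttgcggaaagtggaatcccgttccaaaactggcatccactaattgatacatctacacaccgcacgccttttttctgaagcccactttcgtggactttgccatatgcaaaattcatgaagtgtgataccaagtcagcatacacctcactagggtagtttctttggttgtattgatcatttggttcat
HXK1, chrVI:255350-255649, minus strand: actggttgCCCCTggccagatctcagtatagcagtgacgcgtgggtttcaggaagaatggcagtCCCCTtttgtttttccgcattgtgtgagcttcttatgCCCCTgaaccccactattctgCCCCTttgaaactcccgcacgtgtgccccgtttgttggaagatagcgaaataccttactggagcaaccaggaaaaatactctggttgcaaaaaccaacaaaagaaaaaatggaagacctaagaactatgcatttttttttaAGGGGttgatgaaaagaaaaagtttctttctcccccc
PGK1 held 4 copies of CTTCC, ENO2 held 1, and HXK1 held 5 copies of CCCCT. HXK1 also held 3 copies of CTTCC, left in lower case, so these letters do not separate it from the glycolytic genes, and TDH3 held 0 copies of CTTCC and 2 of CCCCT. The letters CTTCC occurred in the window of 11 of the 13 glycolysis genes other than PYK2 (FBA1 and TDH3 had none there). They occurred in the window of 21 of the 36 members, and in 49.6% of the 5999 such windows before nuclear protein-coding genes. CCCCT occurred before 14 of the 36 members and in 22.5% of all windows. A match is a run of letters in this window and was not tested as a binding site.

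The table implies between 7160196 reads (swr1 upf1) and 57373615 reads (prp43 DAmP) per library, since the low RPKM values of every library were whole multiples of 1 read. The transcripts of the deleted genes were at or near 0 in the libraries that carry each deletion, and PRP43 was lowest in both prp43 libraries, so the libraries followed their labels. Open reading frames inside the ribosomal DNA took 12.1 to 21.2% of summed RPKM in 5 libraries (htz1 1, swr1, swr1 xrn1, htz1 upf1 and swr1 upf1) and 0.0187 to 3.41% in the other 10. The MATalpha pheromone gene MF(ALPHA)1 was high in the 3 libraries without SWR1 and in wild type 1, and low in the other 11, so all 3 libraries without SWR1 were both MATalpha and rich in ribosomal DNA frames. Other strain markers differed too, also within pairs. MET17 was at 0 to 0.361 RPKM in 7 libraries (htz1 2, xrn1 1, swr1 xrn1, htz1 upf1, swr1 upf1 and both prp43 libraries) and at 131 to 260 in the other 8. LYS2 was at 43.5 to 84.5 RPKM in htz1 2, xrn1 1, htz1 upf1 and both prp43 libraries, and at 0.0118 to 0.298 in the other 10. The part of these markers in the results was not tested. Within upf1, the replicates stood apart for some members. ALD6, the main cytosolic aldehyde dehydrogenase, was at 34.9 RPKM in upf1 2 and 425 RPKM in upf1 1, and 6 members differed by more than 2-fold between this pair, against 0 in the xrn1 pair, 4 in wild type and 6 in htz1.

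As a group the 36 genes took a large part of each library. They held 9.93 and 11.8% of all reads in wild type 1 and 3, 9.25 and 13.7% in htz1, 10.2% in swr1, 9.66 and 10.8% in upf1, 9.43% in swr1 upf1, 8.27% in htz1 upf1, 12.5 and 12.3% in prp43 DAmP with and without HTZ1. The 4 libraries without XRN1 held less, 4.42 and 4.58% in xrn1, 5.35% in htz1 xrn1 and 3.84% in swr1 xrn1, and did not overlap with the other 11. In wild type (n = 2) the level per gene length was highest for TDH3, the main glyceraldehyde-3-phosphate dehydrogenase, at 18565 ± 3121 RPKM (SD). PDC1, the main pyruvate decarboxylase, followed at 11255 ± 1867, then FBA1, the aldolase, at 10479 ± 1181 and ENO2, the main enolase, at 9848 ± 2066, and PDC1, FBA1 and ENO2 were closer to their neighbours in this order than their spreads. At the low end stood ACS1 with 7.41 ± 1.59, FBP1 with 6.15 ± 0.495, PCK1 with 3.79 ± 0.417 and the decarboxylase PDC6 with 0.837 ± 0.378 RPKM. PDC6 (YGR087C, chrVII:651290-652981) lay between 0 and 3.29 RPKM, with 0 to 202 reads and a median of 28. In swr1 upf1, where it had 0 reads, 3 reads would have been 0.248 RPKM. Its mean was under 1 RPKM, the limit for testing, so 35 of the 36 members were tested. The next lowest member was PCK1, with 17 to 1124 reads. Floors of this kind cover counting error only.

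**Figure D1:**
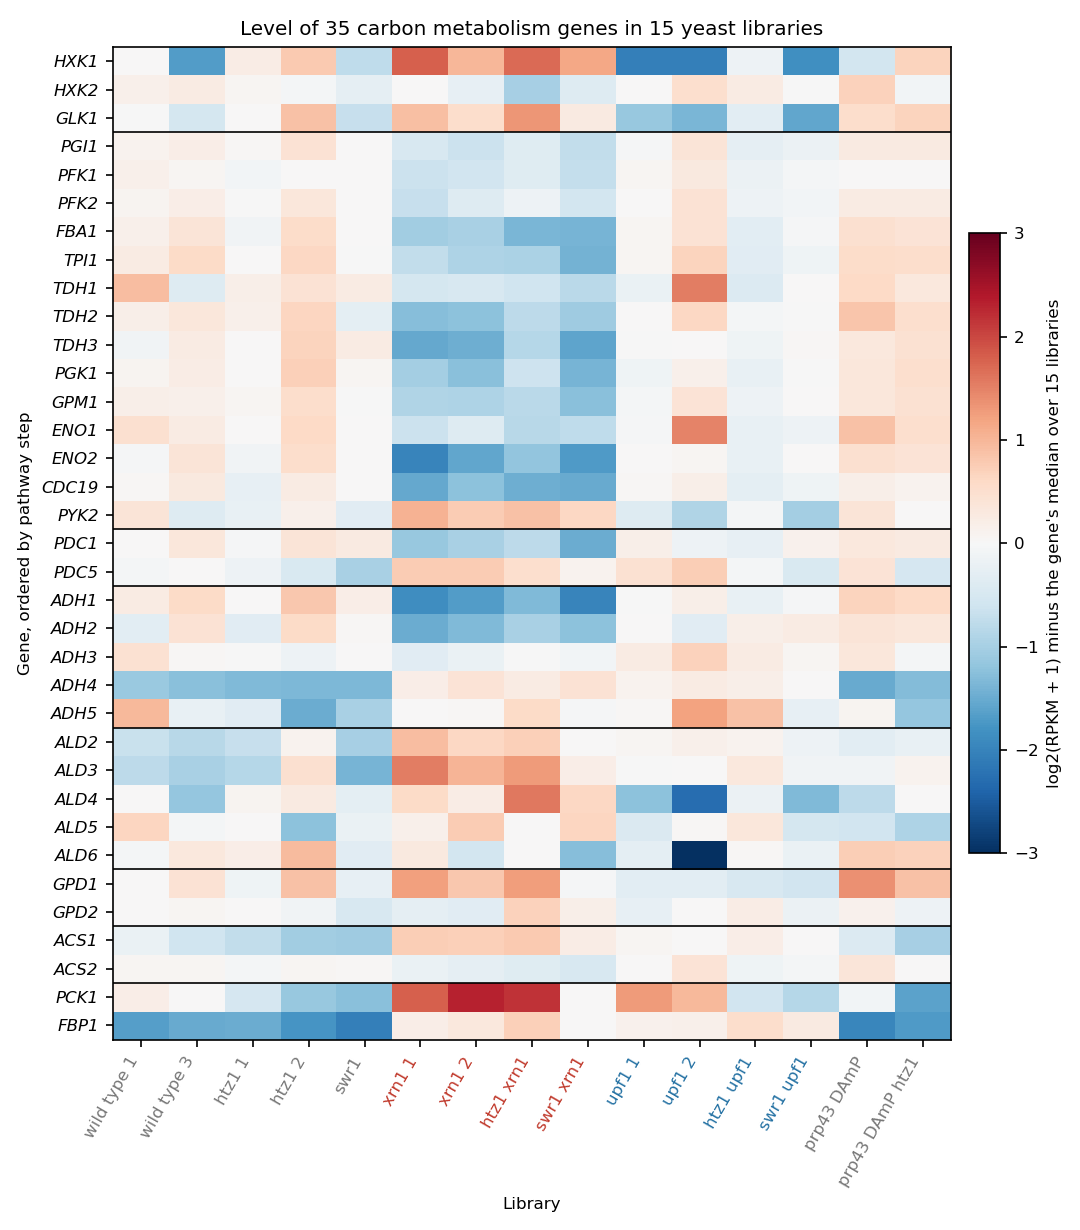
Each row is 1 of the 35 tested genes, ordered by pathway step, and each column 1 of the 15 libraries; the colour is log2(RPKM + 1) minus the gene's median over the libraries, from -3 (blue) to 3 (red). Library names are red without XRN1, blue without UPF1 and grey otherwise. The glycolysis rows other than PYK2 are blue in the 4 columns without XRN1, where the set held 3.84 to 5.35% of reads. The rows of ADH4 and FBP1 are higher in all 8 columns without XRN1 or UPF1 than in the others.

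The main question put to these genes was how their levels moved with each altered gene when it was compared within matching backgrounds. For XRN1, the 4 libraries without it (2 xrn1, htz1 xrn1, swr1 xrn1) were set against the 5 with it (2 wild type, 2 htz1, swr1), each background against its own. Without XRN1 the 13 genes of glycolysis other than PYK2, and PDC1 and ADH1 of fermentation, fell while PCK1 and FBP1 rose, under both scales used below. PYK2 rose on the deposited values and was not called after scaling. Of the 9 major isozymes 7 fell and 1 rose on the deposited values, and of the 17 minor isozymes tested 9 rose and 4 fell; with the libraries scaled to the same median log ratio, 8 major isozymes fell and 0 rose, and 3 minor isozymes rose and 6 fell. A gene was called at a Benjamini-Hochberg adjusted p under 0.05 in a limma fit to log2(RPKM + 1) of all 6495 entries with a mean of at least 1 RPKM. Of the 35 members tested 18 fell (51.4%) and 12 rose (34.3%), where 7.19% of all entries fell and 74.1% rose. The median over all entries was log2 0.99 and that over the tested members -0.48, so each difference is also given relative to that median. With the libraries scaled to the same median log ratio 21 members fell and 5 rose, where 29.2% of all entries fell and 31.5% rose. In bulk RNA from a culture, fewer cells that express a gene and less of its RNA per cell cannot be told apart, and RPKM does not give molecules per cell.

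In the steps from glucose 6-phosphate to pyruvate, 13 of 14 genes fell without XRN1, by log2 0.54 to 1.72 as deposited, or 1.53 to 2.72 below the median entry. ENO2 (YHR174W, chrVIII:451327-452640), which makes phosphoenolpyruvate, stood at 8387 and 11309 in wild type, 7963 and 12426 in htz1 and 8716 in swr1. Without XRN1 ENO2 stood at 2189.5 and 2925 in xrn1, 3779 in htz1 xrn1 and 2664 in swr1 xrn1. The groups did not overlap, and the difference was log2 -1.72 ± 0.20 (SE), adjusted p = 4.32e-05, -2.72 relative to the median entry. TDH3 (YGR192C, chrVII:882812-883810) read 16358 and 20772 in wild type, 17749 and 27733 in htz1 and 20763 in swr1. Without XRN1 TDH3 read 6076 and 6311 in xrn1, 9749.5 in htz1 xrn1 and 5893 in swr1 xrn1 (log2 -1.51 ± 0.20 (SE), adjusted p = 7.66e-05, -2.51 relative to the median entry). For CDC19 (YAL038W, chrI:71786-73288), the main pyruvate kinase, the values were 7383 and 8752 in wild type, 6109 and 8511 in htz1 and 7189 in swr1, and 2479 and 3049.9 in xrn1, 2614 in htz1 xrn1 and 2532 in swr1 xrn1 (log2 -1.51 ± 0.16 (SE), adjusted p = 2.33e-05, -2.51 relative to the median entry). Every library without XRN1 was below every library with it in both genes. FBA1 (YKL060C, chrXI:326408-327487) fell from 9643 and 11314 in wild type, 8031 and 12688 in htz1 and 8639 in swr1 to 4186 and 4380.0 in xrn1, 3324 in htz1 xrn1 and 3278 in swr1 xrn1 (log2 -1.41 ± 0.17 (SE), adjusted p = 5.87e-05, -2.40 relative to the median entry). TPI1 (YDR050C, chrIV:555726-556472), triose-phosphate isomerase, went from 2531 and 3188 in wild type, 2144 and 3296 in htz1 and 2116 in swr1 to 1281 and 1123 in xrn1, 1117 in htz1 xrn1 and 799.8 in swr1 xrn1 (log2 -1.28 ± 0.16 (SE), adjusted p = 6.55e-05, -2.28 relative to the median entry). These neighbouring steps of the pathway moved by similar amounts. PGK1 (YCR012W, chrIII:137746-138996), phosphoglycerate kinase, lay at 4066 and 4507 in wild type, 3845 and 6339.6 in htz1 and 4036 in swr1. Without XRN1 PGK1 stood at 1904 and 1599.9 in xrn1, 2501 in htz1 xrn1 and 1466 in swr1 xrn1 (log2 -1.24 ± 0.18 (SE), adjusted p = 0.000154, -2.23 relative to the median entry). GPM1 (YKL152C, chrXI:163642-164385), phosphoglycerate mutase, lay at 5341 and 5233 in wild type, 4966 and 6877 in htz1 and 4720.4 in swr1. Without XRN1 GPM1 stood at 2550.3 and 2500.3 in xrn1, 2709.8 in htz1 xrn1 and 1986 in swr1 xrn1 (log2 -1.12 ± 0.14 (SE), adjusted p = 7.21e-05, -2.12 relative to the median entry). Neither gene's groups overlapped.

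The smallest of these falls were in the upper part of the pathway. PGI1 (YBR196C, chrII:612236-613900), phosphoglucose isomerase, read 1331 and 1423 in wild type, 1267 and 1677 in htz1 and 1241 in swr1. Without XRN1 PGI1 read 888 and 787 in xrn1, 970.2 in htz1 xrn1 and 746 in swr1 xrn1 (log2 -0.68 ± 0.13 (SE), adjusted p = 0.000897, -1.68 relative to the median entry). Both phosphofructokinase subunits fell. PFK1 (YGR240C, chrVII:970771-973734), the alpha subunit, read 508 and 477 in wild type, 436 and 459.6 in htz1 and 465 in swr1. Without XRN1 PFK1 read 295 and 308 in xrn1, 359 in htz1 xrn1 and 280.3 in swr1 xrn1 (log2 -0.59 ± 0.12 (SE), adjusted p = 0.00131, -1.59 relative to the median entry). PFK2 (YMR205C, chrXIII:671887-674766), the beta subunit, read 527 and 569 in wild type, 491 and 632 in htz1 and 496 in swr1. Without XRN1 PFK2 read 306 and 382 in xrn1, 449 in htz1 xrn1 and 337 in swr1 xrn1 (log2 -0.54 ± 0.14 (SE), adjusted p = 0.0054, -1.53 relative to the median entry). Among the lower isozymes TDH2 (YJR009C, chrX:453683-454681) fell in step with TDH3, from 2893 and 3213 in wild type, 2808 and 3976 in htz1 and 2063 in swr1 to 1044 and 1085 in xrn1, 1468 in htz1 xrn1 and 1215 in swr1 xrn1 (log2 -1.24 ± 0.17 (SE), adjusted p = 0.000109, -2.24 relative to the median entry). TDH1 (YJL052W, chrX:338271-339269) read 733 and 294 in wild type, 438 and 522 in htz1 and 455 in swr1. Without XRN1 TDH1 read 267 and 275 in xrn1, 253 in htz1 xrn1 and 221 in swr1 xrn1 (log2 -0.88 ± 0.24 (SE), adjusted p = 0.00637, -1.87 relative to the median entry). ENO1 (YGR254W, chrVII:1000927-1002240) read 1597 and 1346 in wild type, 1138 and 1731 in htz1 and 1141 in swr1. Without XRN1 ENO1 read 723 and 865 in xrn1, 641 in htz1 xrn1 and 672 in swr1 xrn1 (log2 -0.93 ± 0.16 (SE), adjusted p = 0.00044, -1.93 relative to the median entry). All of these genes had lower values in each of the 4 libraries than in any of the 5 with XRN1. PYK2 (YOR347C, chrXV:984942-986462), the pyruvate kinase that does not need fructose 1,6-bisphosphate, was the exception in the pathway: it read 34.5 and 19.9 in wild type, 22.1 and 28.998 in htz1 and 20.5 in swr1. Without XRN1 PYK2 read 55.4 and 45.3 in xrn1, 49.3 in htz1 xrn1 and 40.4 in swr1 xrn1 (log2 0.92 ± 0.18 (SE), adjusted p = 0.000985, -0.07 relative to the median entry). Its rise as deposited was the size of the median entry's, and after scaling its difference was -0.04 (adjusted p = 0.839).

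**Figure D2:**
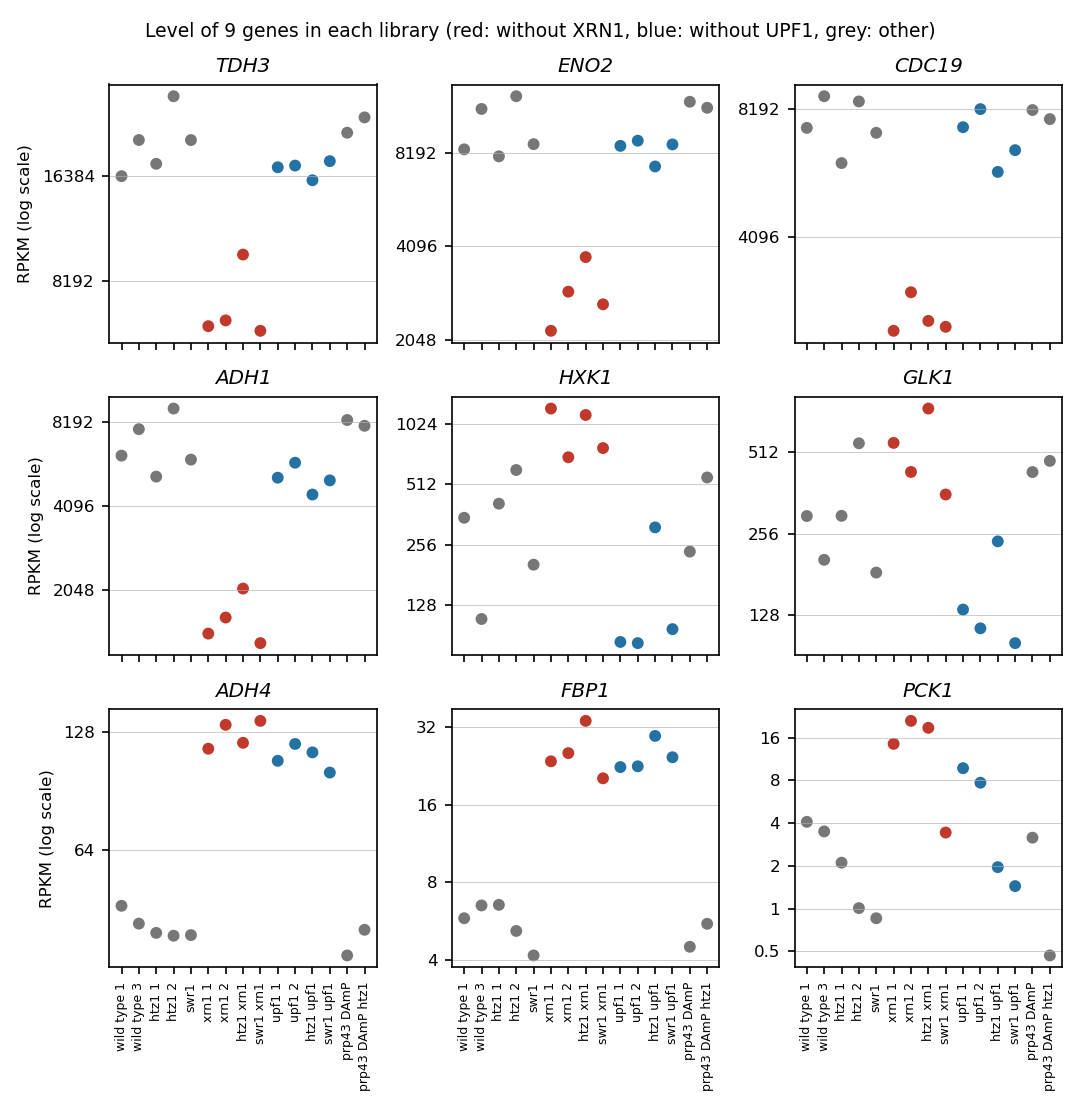
RPKM on a log axis for 9 genes, 1 panel each, with 1 point per library (red without XRN1, blue without UPF1, grey the other 7). The red points of TDH3, ENO2, CDC19 and ADH1 lie under all others, those of FBP1 and ADH4 lie with the blue points above all grey ones (FBP1 from 20.2 RPKM up against 6.54 at most), and those of GLK1 and PCK1 overlap with grey points.

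In hexose entry HXK2 (YGL253W, chrVII:23935-25395) fell under both scales, while HXK1 (YFR053C, chrVI:253592-255049) and GLK1 (YCL040W, chrIII:50838-52340) rose on the deposited values and were not called after scaling. HXK2, the main hexokinase on glucose, read 943 and 993 in wild type, 885 and 814 in htz1 and 698 in swr1 with XRN1, and 849 and 713 in xrn1, 419 in htz1 xrn1 and 649 in swr1 xrn1 without it (log2 -0.48 ± 0.17 (SE), adjusted p = 0.0217, -1.48 relative to the median entry). The groups overlapped, and the call was lost without xrn1 2 (log2 -0.47) and without htz1 xrn1 (log2 -0.24). HXK1, its paralog that rises when glucose is low, read 349 and 109 in wild type, 411 and 604 in htz1 and 204 in swr1. Without XRN1 HXK1 read 1223 and 699 in xrn1, 1136 in htz1 xrn1 and 777 in swr1 xrn1 (log2 1.84 ± 0.35 (SE), adjusted p = 0.000852, 0.85 relative to the median entry). All 4 libraries without XRN1 were above the other 5, but the call did not hold after scaling, with 0.85 (adjusted p = 0.0647). GLK1, glucokinase, read 298 and 205 in wild type, 298 and 553 in htz1 and 184 in swr1. Without XRN1 GLK1 read 555 and 433 in xrn1, 744 in htz1 xrn1 and 358 in swr1 xrn1 (log2 0.94 ± 0.20 (SE), adjusted p = 0.00166, -0.05 relative to the median entry). It overlapped between groups and turned to -0.05 (adjusted p = 0.87) after scaling.

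The fermentation genes carried the lowest difference of the set. ADH1 (YOL086C, chrXV:159548-160594), which makes ethanol from acetaldehyde, stood at 6184 and 7693 in wild type, 5200.3 and 9118 in htz1 and 5984 in swr1 with XRN1, and at 1424 and 1626 in xrn1, 2065 in htz1 xrn1 and 1317 in swr1 xrn1 without it (log2 -2.04 ± 0.20 (SE), adjusted p = 1.61e-05, -3.04 relative to the median entry), a level 4.12-fold lower. The 4 libraries sat far under the lowest of the other 5. PDC1 (YLR044C, chrXII:232390-234081) read 9935 and 12575 in wild type, 9693 and 12909 in htz1 and 11979 in swr1. Without XRN1 PDC1 read 4511 and 5072 in xrn1, 5719.9 in htz1 xrn1 and 3527 in swr1 xrn1 (log2 -1.27 ± 0.18 (SE), adjusted p = 0.00015, -2.26 relative to the median entry). ADH2 (YMR303C, chrXIII:873291-874337), known for consuming ethanol once glucose is gone, fell. It read 167 and 279 in wild type, 163 and 309.6 in htz1 and 212 in swr1. Without XRN1 ADH2 read 73.6 and 81.6 in xrn1, 105 in htz1 xrn1 and 86.99 in swr1 xrn1 (log2 -1.31 ± 0.22 (SE), adjusted p = 0.000367, -2.30 relative to the median entry), though its reads can come in part from ADH1 through the shared windows given above. ADH4 (YGL256W, chrVII:15159-16307), an alcohol dehydrogenase of another protein family than ADH1, went the other way, from 46.1 and 41.5 in wild type, 39.3 and 38.7 in htz1 and 38.8 in swr1 to 116 and 133 in xrn1, 120.0 in htz1 xrn1 and 136 in swr1 xrn1 (log2 1.59 ± 0.12 (SE), adjusted p = 6.6e-06, 0.59 relative to the median entry). The groups did not overlap and the rise was still called after scaling, at 0.61 (adjusted p = 0.00227). PDC5 (YLR134W, chrXII:410723-412414), the decarboxylase known to rise when PDC1 is lost, read 10.2 and 10.7 in wild type, 9.60 and 7.49 in htz1 and 4.97 in swr1. Without XRN1 PDC5 read 19.002 and 19.1 in xrn1, 15.6 in htz1 xrn1 and 11.6 in swr1 xrn1 (log2 0.87 ± 0.15 (SE), adjusted p = 0.000482, -0.13 relative to the median entry), and -0.05 (adjusted p = 0.767) after scaling. ADH3 (YMR083W, chrXIII:434788-435915), the mitochondrial enzyme, read 327 and 241 in wild type, 236 and 214 in htz1 and 237 in swr1. Without XRN1 ADH3 read 187 and 206 in xrn1, 233 in htz1 xrn1 and 224 in swr1 xrn1 (log2 -0.24 ± 0.15 (SE), adjusted p = 0.171, -1.23 relative to the median entry), and was not called. ADH5 (YBR145W, chrII:533762-534817) read 51.4 and 22.03 in wild type, 20.02 and 8.59 in htz1 and 12.6 in swr1. Without XRN1 ADH5 read 25.8 and 26.4 in xrn1, 38.7 in htz1 xrn1 and 25.2 in swr1 xrn1 (log2 0.51 ± 0.39 (SE), adjusted p = 0.249, -0.49 relative to the median entry), with wide overlap. After scaling ADH3 was called as lower, at -1.23 (adjusted p = 0.000149), and ADH5 was not.

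Among the aldehyde dehydrogenases 3 minor genes rose on the deposited values and 1 of them, ALD3 (YMR169C, chrXIII:599352-600872), after scaling. ALD3, a cytosolic stress-inducible aldehyde dehydrogenase, read 20.3 and 17.8 in wild type, 19.3 and 49.9 in htz1 and 13.03 in swr1. Without XRN1 ALD3 read 105 and 73.2 in xrn1, 88.2 in htz1 xrn1 and 41.3 in swr1 xrn1 (log2 1.81 ± 0.27 (SE), adjusted p = 0.000182, 0.82 relative to the median entry). The lowest value without XRN1 was below the highest with it, htz1 2. The rise was at the limit of a call after scaling, 0.84 (adjusted p = 0.0498). ALD2 (YMR170C, chrXIII:601562-603082), its tandem neighbour, read 24.8 and 22.1 in wild type, 24.6 and 43.6 in htz1 and 19.7 in swr1. Without XRN1 ALD2 read 76.8 and 62.5 in xrn1, 66.9 in htz1 xrn1 and 40.3 in swr1 xrn1 (log2 1.24 ± 0.20 (SE), adjusted p = 0.000245, 0.25 relative to the median entry). The mitochondrial ALD4 (YOR374W, chrXV:1039840-1041399) read 125 and 55.1 in wild type, 131 and 151 in htz1 and 102 in swr1. Without XRN1 ALD4 read 186 and 146 in xrn1, 375 in htz1 xrn1 and 191 in swr1 xrn1 (log2 1.09 ± 0.23 (SE), adjusted p = 0.0015, 0.10 relative to the median entry). After scaling ALD2 stood at 0.27 (adjusted p = 0.342) and ALD4 at 0.11 (adjusted p = 0.671), so neither was called as rising more than the median entry. ALD6 (YPL061W, chrXVI:432588-434090) read 495 and 650.5 in wild type, 593 and 993 in htz1 and 408 in swr1. Without XRN1 ALD6 read 638 and 351 in xrn1, 518 in htz1 xrn1 and 215 in swr1 xrn1 (log2 -0.51 ± 0.23 (SE), adjusted p = 0.0663, -1.50 relative to the median entry). It was not called as deposited, and was called as lower after scaling, -1.50 (adjusted p = 0.00274). ALD5 (YER073W, chrV:304030-305592), a mitochondrial form, read 323 and 198 in wild type, 208 and 87.5 in htz1 and 181 in swr1. Without XRN1 ALD5 read 229 and 356 in xrn1, 208 in htz1 xrn1 and 327 in swr1 xrn1 (log2 0.47 ± 0.28 (SE), adjusted p = 0.148, -0.53 relative to the median entry), and was called under neither scale. The acetyl-CoA synthetase genes moved apart under both scales. ACS1 (YAL054C, chrI:42881-45022), the glucose-repressed gene, read 8.54 and 6.29 in wild type, 5.58 and 4.27 in htz1 and 4.25 in swr1. Without XRN1 ACS1 read 17.1 and 16.8 in xrn1, 17.9 in htz1 xrn1 and 11.7 in swr1 xrn1 (log2 1.32 ± 0.18 (SE), adjusted p = 0.000113, 0.33 relative to the median entry), and kept its rise after scaling, 0.43 (adjusted p = 0.0207). ACS2 (YLR153C, chrXII:445524-447575), the form used on glucose, read 164 and 162 in wild type, 151 and 163 in htz1 and 159.8 in swr1. Without XRN1 ACS2 read 137 and 129.6 in xrn1, 122 in htz1 xrn1 and 112 in swr1 xrn1 (log2 -0.36 ± 0.11 (SE), adjusted p = 0.0117, -1.36 relative to the median entry). The call of ACS2 was lost without swr1 or swr1 xrn1 (log2 -0.32 for each) and without htz1 xrn1 (log2 -0.36).

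In glycerol synthesis GPD1 (YDL022W, chrIV:411825-413000) rose on the deposited values, and GPD2 (YOL059W, chrXV:217126-218448) was not called on them. GPD1, the osmotic-stress form of glycerol-3-phosphate dehydrogenase, read 126 and 169.6 in wild type, 114 and 232 in htz1 and 105 in swr1. Without XRN1 GPD1 read 294 and 222 in xrn1, 301.3 in htz1 xrn1 and 123 in swr1 xrn1 (log2 0.69 ± 0.23 (SE), adjusted p = 0.0172, -0.30 relative to the median entry), with overlapping groups and -0.30 (adjusted p = 0.416) after scaling. GPD2 read 100.1 and 104 in wild type, 99.5 and 92.2 in htz1 and 70.8 in swr1. Without XRN1 GPD2 read 82.6 and 78.6 in xrn1, 161 in htz1 xrn1 and 112 in swr1 xrn1 (log2 0.22 ± 0.20 (SE), adjusted p = 0.32, -0.77 relative to the median entry), and was called only after scaling, as lower, -0.76 (adjusted p = 0.0124). The gluconeogenic genes gave the highest positive differences. PCK1 (YKR097W, chrXI:631152-632801) read 4.08 and 3.50 in wild type, 2.10 and 1.01 in htz1 and 0.854 in swr1. Without XRN1 PCK1 read 14.5 and 21.04 in xrn1, 18.8 in htz1 xrn1 and 3.43 in swr1 xrn1 (log2 2.11 ± 0.30 (SE), adjusted p = 0.00013, 1.11 relative to the median entry). The swr1 xrn1 library lay below wild type 1 and wild type 3, so these groups overlapped, and within each background the value without XRN1 was still the higher. FBP1 (YLR377C, chrXII:873746-874792) read 5.80 and 6.50 in wild type, 6.54 and 5.18 in htz1 and 4.16 in swr1. Without XRN1 FBP1 read 23.5 and 25.3 in xrn1, 33.8 in htz1 xrn1 and 20.2 in swr1 xrn1 (log2 2.04 ± 0.16 (SE), adjusted p = 8.02e-06, 1.04 relative to the median entry), with no overlap. Both were called after scaling, PCK1 at 1.30 (adjusted p = 0.00292) and FBP1 at 1.12 (adjusted p = 0.000281).

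**Figure D3:**
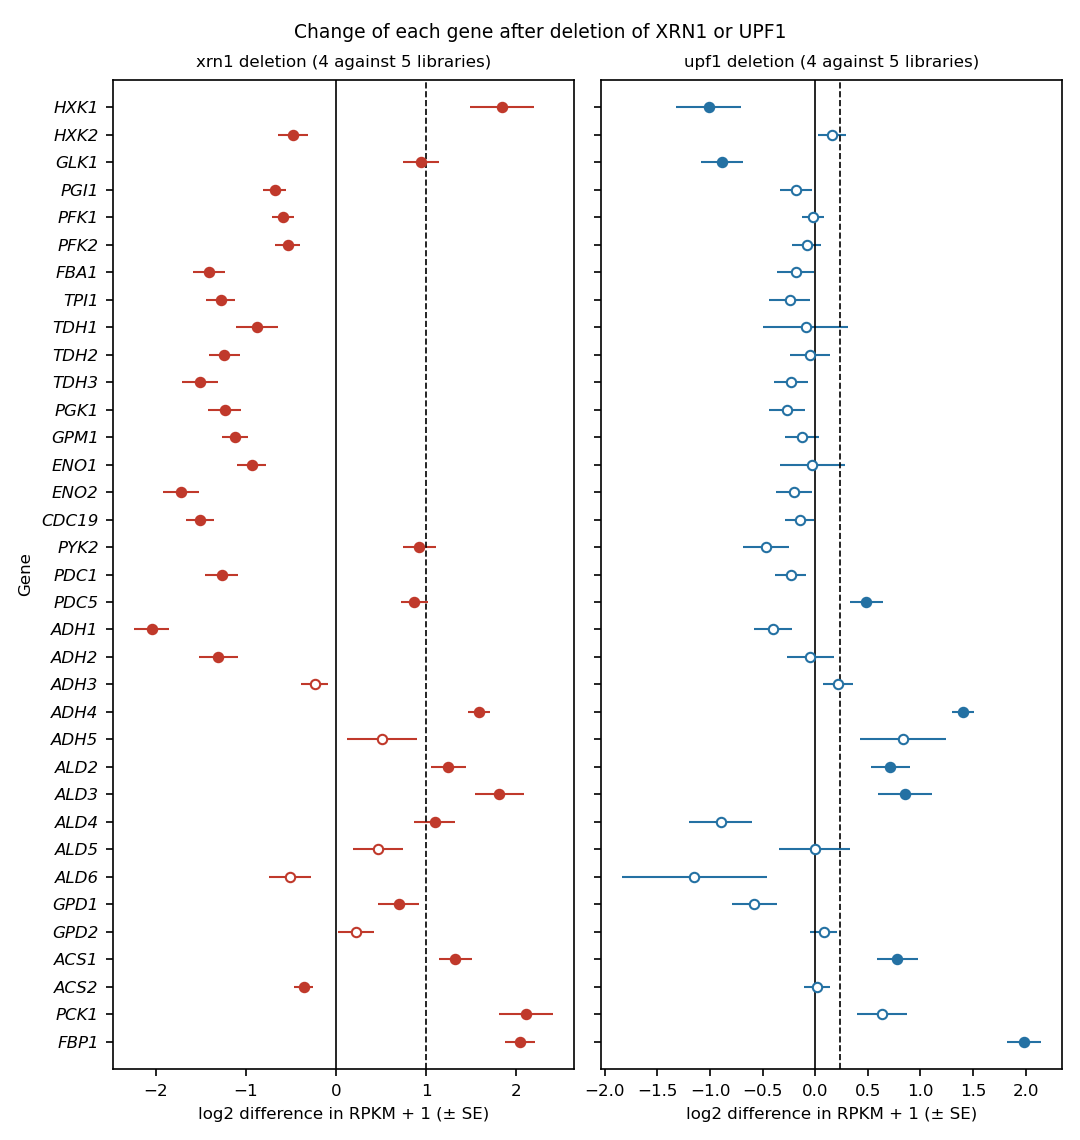
Log2 difference in RPKM + 1 with its standard error for the 35 tested genes, without XRN1 (left) and without UPF1 (right), 4 libraries against 5 in each. Filled points have an adjusted p under 0.05 by limma; the solid line is 0 and the dashed line the median of all entries, log2 0.99 on the left and 0.23 on the right. On the left ADH1 lies lowest at log2 -2.04 and PCK1 highest at 2.11, and GLK1, PYK2, PDC5 and GPD1 lie right of 0 but left of the dashed line.

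When xrn1 was set against wild type with 1 mean per genotype over the 15 libraries, 14 members fell and 10 rose, where 4.14% of all entries fell and 60.8% rose. This comparison uses the same wild type and xrn1 libraries as the average over backgrounds. ADH1 was lowest again (log2 -2.18 ± 0.31 (SE), adjusted p = 0.000852, -3.14 relative to the median entry), and the largest rise was that of HXK1 (log2 2.23 ± 0.49 (SE), adjusted p = 0.00431, 1.28 relative to the median entry). After scaling HXK1 was not called (log2 1.26, adjusted p = 0.0807), and 20 members fell and 2 rose, PCK1 and FBP1, where 18.3% of all entries fell and 17.8% rose. No member's response to the loss of XRN1 was called as different between the swr1 or htz1 deletion and wild type, in interaction tests with limma that had 1 library for each double mutant (0% of all entries were called). Of the 35 members 1 had an unadjusted p under 0.05 in each of these interactions. Of the 6495 entries 96 did with swr1 and 153 with htz1, so these counts do not set the members apart.

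For UPF1, the 4 libraries without it (2 upf1, htz1 upf1, swr1 upf1) were compared with the same 5 that have it. None of the 13 glycolysis genes other than PYK2 was called, with estimates of log2 -0.27 to -0.02. ADH4 and FBP1 rose, and so did PDC5, ALD2, ALD3 and ACS1 on the deposited values, while HXK1 and GLK1 fell. Of 35 members 6 rose (17.1%) and 2 fell (5.71%), where 28.8% of all entries rose and 0.847% fell. The median of all entries was log2 0.23 and that of the tested members -0.08. After scaling 3 rose (ADH4, ACS1 and FBP1) and 5 fell (HXK1, GLK1, PYK2, ALD4 and GPD1), where 21.3% of all entries rose and 19.4% fell. The comparisons for UPF1 and XRN1 share their 5 control libraries, so their values are given side by side and no overlap is drawn from them.

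FBP1 read 22.4 and 22.5 in upf1, 29.5 in htz1 upf1 and 24.4 in swr1 upf1, against 5.80 and 6.50 in wild type, 6.54 and 5.18 in htz1 and 4.16 in swr1 with UPF1 (log2 1.99 ± 0.16 (SE), adjusted p = 3.37e-05, 1.76 relative to the median entry). ADH4 read 108 and 119 in upf1, 113 in htz1 upf1 and 101 in swr1 upf1, against 46.1 and 41.5 in wild type, 39.3 and 38.7 in htz1 and 38.8 in swr1 (log2 1.40 ± 0.11 (SE), adjusted p = 2.78e-05, 1.17 relative to the median entry). For both genes the groups did not overlap. The prp43 libraries, which have both XRN1 and UPF1, lay with the controls, FBP1 at 4.49 and 5.52 in prp43 DAmP with and without HTZ1 and ADH4 at 34.5 and 40.1. So the 8 libraries without XRN1 or UPF1 were above the other 7, from 20.2 RPKM up against 6.54 at most for FBP1, and from 101 RPKM up against 46.1 at most for ADH4. ACS1 was also higher in each of these 8 libraries than in any of the other 7, by a smaller margin. The share of all entries that separate in this way was not counted. The 2 genes do not sit together, FBP1 at chrXII:873746-874792 and ADH4 at chrVII:15159-16307, the latter 15.2 kb from a chromosome end. Both were also the only members called in upf1 against wild type, FBP1 with log2 1.71 ± 0.24 (SE), adjusted p = 0.00246, 1.56 relative to the median entry and ADH4 with log2 1.35 ± 0.21 (SE), adjusted p = 0.00341, 1.20 relative to the median entry, where 13.3% of all entries were called.

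The smaller rises without UPF1 lost their calls when single libraries were left out. ACS1 read 10.4 and 9.94 in upf1, 11.6 in htz1 upf1 and 9.98 in swr1 upf1 (log2 0.78 ± 0.19 (SE), adjusted p = 0.0136, 0.55 relative to the median entry), above each of its 5 controls, and lost its call without swr1 or swr1 upf1 (log2 0.69 for each) and without htz1 upf1 (log2 0.64). ALD2 read 41.7 and 44.997 in upf1, 43.6 in htz1 upf1 and 35.99 in swr1 upf1 (log2 0.71 ± 0.18 (SE), adjusted p = 0.0164, 0.48 relative to the median entry), and lost its call without wild type 3 (log2 0.66) and without swr1 or swr1 upf1 (log2 0.68 for each). ALD3 read 35.4 and 35.7 in upf1, 44.7 in htz1 upf1 and 32.96 in swr1 upf1 (log2 0.85 ± 0.26 (SE), adjusted p = 0.035, 0.62 relative to the median entry). For ALD2 and ALD3 the htz1 2 control lay within or above the range of the libraries without UPF1. ALD3 lost its call in 6 of the 9 fits with 1 library left out, all but those without htz1 1, htz1 2 and htz1 upf1, at log2 0.73 to 0.88. PDC5 read 15.2 and 18.5 in upf1, 10.3 in htz1 upf1 and 7.51 in swr1 upf1 (log2 0.49 ± 0.15 (SE), adjusted p = 0.0422, 0.25 relative to the median entry). Its call was lost when any of the 8 libraries other than htz1 1 was left out, at log2 0.41 to 0.59. The falls were in hexose entry. HXK1 read 84.1 and 82.98 in upf1, 313 in htz1 upf1 and 97.4 in swr1 upf1 (log2 -1.01 ± 0.31 (SE), adjusted p = 0.0356, -1.24 relative to the median entry), with htz1 upf1 above the wild type 3 value, and lost its call without htz1 2, swr1 or any of the 4 libraries lacking UPF1, at log2 -1.17 to -0.97. GLK1 read 134 and 114 in upf1, 239.8 in htz1 upf1 and 101 in swr1 upf1 (log2 -0.89 ± 0.20 (SE), adjusted p = 0.00818, -1.12 relative to the median entry), and overlapped the controls only through htz1 upf1. Its call held in each fit with 1 library left out. The number of members called fell from 8 to 3 without swr1 or swr1 upf1 and to 5 without upf1 2 or htz1 upf1. Leaving out the libraries rich in ribosomal DNA frames, chosen after seeing the data, sets only upf1 against wild type. ACS1 (log2 0.42, adjusted p = 0.575), PDC5 (log2 0.63, adjusted p = 0.269), ALD2 (log2 0.86, adjusted p = 0.0583) and ALD3 (log2 0.87, adjusted p = 0.0623) then lost their calls, and ADH4, FBP1, GLK1 and HXK1 were still called.

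Members that were not called without UPF1 included the genes that fell most without XRN1. ADH1 read 5155 and 5832 in upf1, 4486 in htz1 upf1 and 5042 in swr1 upf1 (log2 -0.40 ± 0.18 (SE), adjusted p = 0.136, -0.63 relative to the median entry). ENO2 read 8606 and 8942 in upf1, 7389 in htz1 upf1 and 8698 in swr1 upf1 (log2 -0.20 ± 0.17 (SE), adjusted p = 0.427, -0.43 relative to the median entry). TDH3 read 17349.6 and 17545 in upf1, 15922 in htz1 upf1 and 18065 in swr1 upf1 (log2 -0.23 ± 0.17 (SE), adjusted p = 0.355, -0.46 relative to the median entry). CDC19 read 7410.0 and 8166 in upf1, 5825 in htz1 upf1 and 6549 in swr1 upf1 (log2 -0.15 ± 0.14 (SE), adjusted p = 0.483, -0.38 relative to the median entry). Each of these lay within or close to the range of the controls. ALD4, at 52.4 and 24.7 in upf1, 109.5 in htz1 upf1 and 49.1 in swr1 upf1, was near the limit (log2 -0.90 ± 0.30 (SE), adjusted p = 0.0512, -1.13 relative to the median entry). PCK1 read 9.76 and 7.71 in upf1, 1.96 in htz1 upf1 and 1.44 in swr1 upf1 (log2 0.64 ± 0.24 (SE), adjusted p = 0.0765, 0.40 relative to the median entry), with both double mutants in the range of the controls. GPD1, at 100.2 and 100.3 in upf1, 90.1 in htz1 upf1 and 84.7 in swr1 upf1, was below each of the 5 controls and not called (log2 -0.58 ± 0.21 (SE), adjusted p = 0.0723, -0.81 relative to the median entry). ALD6 had the lowest estimate (log2 -1.15 ± 0.69 (SE), adjusted p = 0.26, -1.38 relative to the median entry), with upf1 2 at 34.9 RPKM beside 425, 527 and 452 in the other 3. In that library TDH1 was at 1127 and ENO1 at 3191 RPKM, the highest of the 15 for each, beside 333 and 1111 in upf1 1. No member was called in the htz1 by upf1 or swr1 by upf1 interaction with limma, where 0% of all entries were. At an unadjusted p under 0.05 there were 0 members in either, where 79 and 75 of the 6495 entries were.

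The 3 libraries without SWR1 (swr1, swr1 xrn1, swr1 upf1) were compared with the 6 of matching backgrounds (2 wild type, 2 xrn1, 2 upf1). PCK1 and PDC5 fell. That is 2 of 35 members (5.71%), where 3.53% of all entries fell and 0.477% rose. The median was log2 -0.20 over the tested members and -0.08 over all entries. PCK1 read 0.854 in swr1, 3.43 in swr1 xrn1 and 1.44 in swr1 upf1, against 4.08 and 3.50 in wild type, 14.5 and 21.04 in xrn1 and 9.76 and 7.71 in upf1 (log2 -1.80 ± 0.21 (SE), adjusted p = 0.00377). Each library without SWR1 was below both libraries of its own background. The call was lost without swr1 xrn1 (log2 -1.68, adjusted p = 0.0718). PDC5 read 4.97 in swr1, 11.6 in swr1 xrn1 and 7.51 in swr1 upf1, against 10.2 and 10.7, 19.002 and 19.1, and 15.2 and 18.5 in the same order (log2 -0.89 ± 0.15 (SE), adjusted p = 0.0147). It too was lower within each background, and its call was lost without swr1 (log2 -0.87), without swr1 xrn1 (log2 -1.002) and without swr1 upf1 (log2 -0.81). All 3 of these libraries were rich in ribosomal DNA frames and of MATalpha mating type, as given above, which cannot be told apart from the deletion across the 3. Wild type 1, also MATalpha, had PCK1 at 4.08 and PDC5 at 10.2 RPKM. The ribosomal-rich libraries with SWR1, htz1 1 and htz1 upf1, also lack HTZ1. PCK1 was at 2.10 in htz1 1, below both wild type libraries, and at 1.96 in htz1 upf1, below both upf1 libraries. PDC5 was at 9.60 and 10.3, also below both libraries of wild type and of upf1, in that order. The libraries without HTZ1 that were not ribosomal-rich had PDC5 at 7.49 in htz1 2, 7.33 in prp43 DAmP htz1 and 15.6 in htz1 xrn1. PCK1 was lower in htz1 2 and prp43 DAmP htz1 than in htz1 1 and htz1 upf1, and in htz1 xrn1 it lay between the 2 xrn1 libraries. The part of ribosomal richness in these values was not tested. Among members not called the lowest estimates after these were ADH5 (log2 -0.75 ± 0.34 (SE), adjusted p = 0.277) and GPD1 (log2 -0.59 ± 0.18 (SE), adjusted p = 0.12). The highest were ALD4 (log2 0.32 ± 0.28 (SE), adjusted p = 0.586), ADH2 (log2 0.19 ± 0.18 (SE), adjusted p = 0.619) and ALD6 (log2 0.09 ± 0.73 (SE), adjusted p = 0.964).

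The 5 libraries without HTZ1 were compared with 7 of matching backgrounds, and 0 of 35 members were called by limma on the deposited values, where 1.92% of all entries were called. At an unadjusted p under 0.05 there were 6 of the 35 members, where 1153 of the 6495 entries were, so this count does not set the members apart. With voom on recovered reads 1 member was called. The median was log2 -0.01 over the tested members and -0.02 over all entries. HXK1 and ALD4 had the highest estimates. ALD4 read 131 and 151 in htz1, 375 in htz1 xrn1, 126 in prp43 DAmP htz1 and 109.5 in htz1 upf1, against 24.7 to 186 RPKM with a median of 71.8 in the 7 others (log2 1.06 ± 0.24 (SE), adjusted p = 0.0502). HXK1 read 411 and 604 in htz1, 1136 in htz1 xrn1, 555 in prp43 DAmP htz1 and 313 in htz1 upf1, against 82.98 to 1223 RPKM with a median of 237 (log2 1.21 ± 0.30 (SE), adjusted p = 0.0655). Both genes overlapped between the groups when backgrounds are pooled, and with the libraries scaled to the same median both were called, where 2.16% of all entries rose. ALD6 (log2 0.67 ± 0.53 (SE), adjusted p = 0.56) and GLK1 (log2 0.64 ± 0.18 (SE), adjusted p = 0.0917) came next. On the other side PCK1 read 2.10 and 1.01 in htz1, 18.8 in htz1 xrn1, 0.467 in prp43 DAmP htz1 and 1.96 in htz1 upf1, against 3.16 to 21.04 RPKM with a median of 7.71 (log2 -0.98 ± 0.26 (SE), adjusted p = 0.0795). ADH5 (log2 -0.48 ± 0.37 (SE), adjusted p = 0.539), PDC5 (log2 -0.48 ± 0.14 (SE), adjusted p = 0.099) and HXK2 (log2 -0.41 ± 0.16 (SE), adjusted p = 0.202) followed. The 13 glycolysis genes other than PYK2 lay between log2 -0.38 and 0.24, with a median of -0.03. Against wild type alone 0 members were called in htz1 or in swr1, where 0.0616 and 0.0308% of all entries were. At an unadjusted p under 0.05 there were 3 and 2 of the 35 members, where 302 and 283 of the 6495 entries were.

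For prp43 DAmP, 2 libraries (with and without HTZ1) were compared with 4 (2 wild type, 2 htz1). Limma called 0 of 35 members and 0 of all entries, 0% either way, and voom called 0 members. Of the 35 members only GPD1 had an unadjusted p under 0.05, where 156 of the 6495 entries did. The median was log2 0.17 over the tested members and -0.07 over all entries. GPD1 read 328 and 234 in prp43 DAmP with and without HTZ1, against 126 and 169.6 in wild type and 114 and 232 in htz1 (log2 0.84 ± 0.31 (SE), adjusted p = 0.999). Both prp43 libraries were above all 4 controls. The next highest estimates were those of ALD3 at log2 0.53 and GLK1 at 0.52, and the lowest those of ALD5 at -0.58, PCK1 at -0.48 and ADH5 at -0.27. Set against wild type alone, prp43 DAmP again had 0 members called, where 0.431% of all entries were. At an unadjusted p under 0.05 there was 1 member, where 255 of the 6495 entries were. The htz1 by prp43 DAmP interaction had 0 members by both measures. Of all entries 0.154% were called there, and 118 had an unadjusted p under 0.05.

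Ratios of the major to the minor isozyme within a library need no scaling between libraries. They were tested by exact two-sided permutation of libraries within backgrounds for 17 ratios, leaving out PDC1 to PDC6 because PDC6 had 0 reads in a library. Without XRN1, 13 of 17 ratios shifted toward the minor isozyme. Each had an exact permutation p = 0.0278, the smallest that the 36 arrangements allow, and an adjusted p of 0.0363. The exceptions were TDH3 to TDH2 (adjusted p = 0.333), TDH3 to TDH1 and ALD6 to ALD5 (0.189 each) and GPD1 to GPD2 (0.266). The largest shift was ADH1 to ADH4, by log2 -3.66, followed by ADH1 to ADH5 at -2.59, CDC19 to PYK2 at -2.47, ALD6 to ALD3 at -2.38, HXK2 to HXK1 at -2.33 and PDC1 to PDC5 at -2.22. In 11 of the 13 the groups did not overlap, and HXK2 to GLK1 and ENO2 to ENO1 were those that did. A ratio can shift by a larger fall of the major gene, and ADH2 and ENO1 themselves fell. Ratios that share a major gene, as those of ADH1, ALD6 or HXK2, are not separate results. Of all entries 74.1% rose without XRN1 on the deposited values, while most major isozymes fell. How many other pairs of a high and a low gene shift in this way was not tested. With any of the 9 libraries left out, fewer arrangements remain and 0 of the ratios can pass, so these tests cannot show whether 1 library decides them. Without UPF1 none passed, with adjusted p of 0.135 or more. The ratio of ADH1 to ADH4 fell by log2 1.83 with no overlap (exact p = 0.0278, adjusted p = 0.135). ALD6 to ALD3 and ALD6 to ALD2, lower by log2 -2.05 and -1.89, had no overlap either and the same p; upf1 2, with ALD6 at 34.9 RPKM, gave the lowest ratio of each, at log2 -0.03 and -0.37. In the other direction, HXK2 to HXK1 was higher by log2 1.18 (exact p = 0.0556). Without HTZ1 the ratios of HXK2 to HXK1 and to GLK1 were lower by log2 -1.62 and -1.05, each at the smallest exact p of 108 arrangements, 0.00926, and an adjusted p of 0.0787. Without SWR1 the ratio of PDC1 to PDC5 was higher by log2 0.90 (exact p = 0.0370 of 27 arrangements, adjusted p = 0.63). The prp43 libraries allowed 9 arrangements and so no exact p under 0.111.

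The same was read as shares of each family's summed RPKM. HXK2 made up 32.3 and 38.6% in xrn1, 18.2% in htz1 xrn1 and 36.4% in swr1 xrn1, beside 59.3 and 76.0% in wild type, 55.5 and 41.3% in htz1, 64.3% in swr1, 67.0 and 43.7% in prp43 DAmP with and without HTZ1, and 79.4, 85.8, 64.6 and 80.9% in upf1 1, upf1 2, htz1 upf1 and swr1 upf1. The order was thus lowest without XRN1 and highest without UPF1, with htz1 upf1 inside the range of the others. ADH1 held 73.6 to 80.6% of alcohol dehydrogenase RPKM without XRN1, 86.9 to 89.2% without UPF1, and 91.3 to 94.1% in the other 7 libraries. ADH4 held 4.68 to 7.63%, 1.78 to 2.20% and 0.386 to 0.695% in the same order, so the 3 ranges did not meet for either gene. PYK2 stayed a small part of pyruvate kinase, 1.46 to 2.18% without XRN1 and 0.166 to 0.466% in the other 11. ACS1 reached 9.46 to 12.8% of acetyl-CoA synthetase without XRN1, beside 4.57 to 7.46% without UPF1 and 2.55 to 4.95% in the other 7. PDC1 made up 99.6% of pyruvate decarboxylase at the lowest, and TDH3 kept 77.6 to 89.2% of its family in all 15 libraries.

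**Figure D4:**
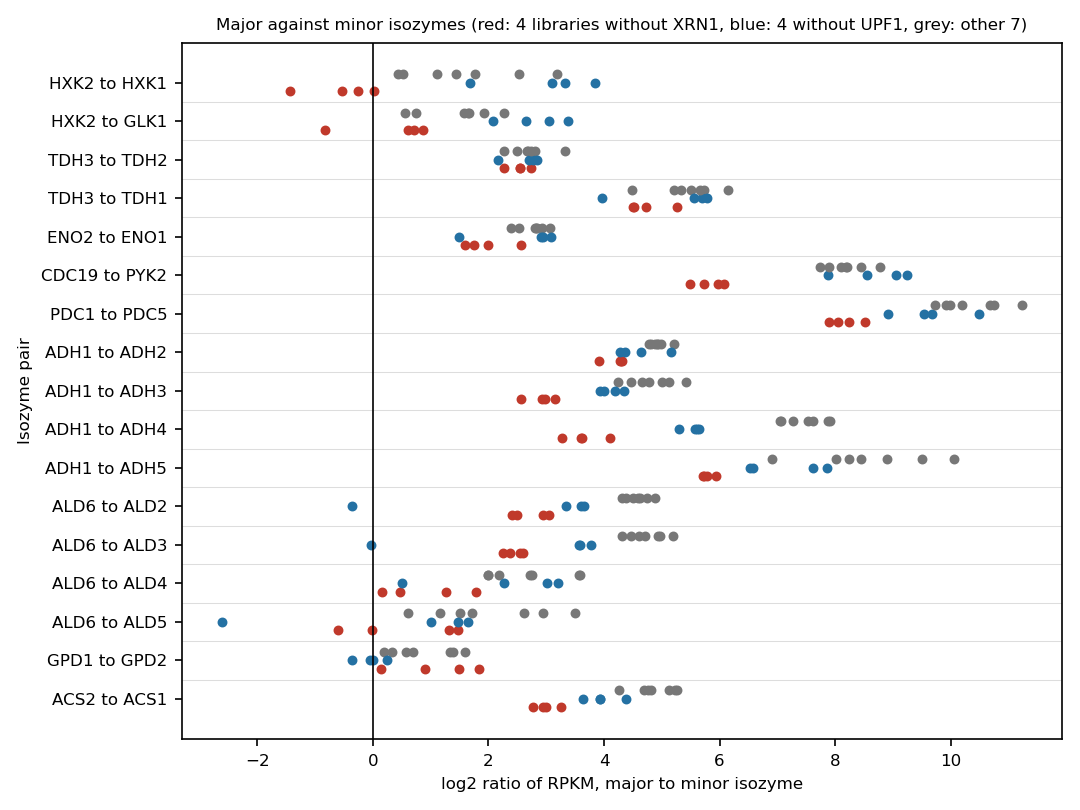
Log2 ratio of RPKM of the major to the minor isozyme for 17 pairs, with 1 point per library (red without XRN1, blue without UPF1, grey the other 7); the line at 0 marks equal levels. The red points lie to the left in most pairs. For ADH1 to ADH4 the difference within backgrounds, against 5 control libraries, was log2 -3.66. The red points lie among the grey points for TDH3 to TDH2 and overlap with them for GPD1 to GPD2.

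Other genes around the pathway were counted by list, and the lists are read against all entries, of which 74.1% rose and 7.19% fell without XRN1 (median log2 0.99) and 28.8% rose and 0.847% fell without UPF1 (median log2 0.23). After scaling, 31.5% of all entries rose and 29.2% fell without XRN1, and 21.3% rose and 19.4% fell without UPF1. Of 15 further genes of gluconeogenesis and the glyoxylate cycle, 13 rose and 1 fell without XRN1, and 10 rose without UPF1 (after scaling 10 and 2, and 6 and 1). ICL1, isocitrate lyase, rose by log2 2.10 ± 0.20 (SE) without XRN1 and by 2.14 ± 0.21 without UPF1, and JEN1, the lactate carrier, by 2.42 ± 0.23 and 2.06 ± 0.21. The list's median was log2 1.51 without XRN1 and 0.80 without UPF1. PYC2, pyruvate carboxylase, was the gene that fell, by log2 0.45 ± 0.15, without XRN1. Of 19 regulators and sensors of glycolysis, 15 rose and 0 fell without XRN1, and 4 rose without UPF1. After scaling 7 rose and 3 fell, and 1 rose and 6 fell. GCR1, the activator of glycolytic genes, rose by log2 1.54 ± 0.17 without XRN1 and by 1.30 ± 0.16 without UPF1, and it was called after scaling in both. The median of the regulators was log2 1.03 and 0.0048. The share of regulators that rose without XRN1 was near that of all entries, and without UPF1 it was under it, so these counts do not set the list apart. Of 5 genes of the pyruvate dehydrogenase complex 4 fell and 1 rose without XRN1, and 0 were called without UPF1 (after scaling 5 fell, and 4 fell). Its median was log2 -0.39 and -0.20. PDA1, its E1 alpha subunit, fell by log2 0.85 ± 0.15 without XRN1. Of 11 pentose phosphate genes 4 rose and 4 fell without XRN1 and 2 rose without UPF1 (after scaling 1 and 7, and 1 and 2), with a median of log2 0.16 and -0.04. TKL1, the main transketolase, fell by log2 0.52 ± 0.12 without XRN1, while its minor paralog TKL2 rose by 1.41 ± 0.20 without XRN1 and by 1.28 ± 0.16 without UPF1. After scaling TKL2 was not called without XRN1 (log2 0.51, adjusted p = 0.0564) and was called without UPF1. Of 9 glycerol genes 6 rose and 1 fell without XRN1 and 4 rose without UPF1 (after scaling 3 and 3, and 3 and 1), with a median of log2 0.86 and 0.50; without XRN1 both its share that rose and its median were under those of all entries. STL1, the glycerol importer, rose by log2 3.07 ± 0.21 and 2.20 ± 0.16, and GPP1, the main glycerol-3-phosphatase, fell by 1.22 ± 0.14 without XRN1. Without SWR1 3.53% of all entries fell and 0.477% rose on the deposited values. In the lists 2 of 15 (JEN1 and IDP2), 2 of 11 (NQM1 and GND2) and 2 of 9 (STL1 and GPP2) fell there, and none of the other lists had a call. Of these JEN1 fell by log2 1.07 ± 0.17 and GND2, the minor 6-phosphogluconate dehydrogenase, by 1.37 ± 0.20. Without HTZ1 and for prp43 DAmP 0 genes of these lists were called on the deposited values, by limma. Of all entries 1.92 and 0% were called there. After scaling JEN1 fell and REG1 and GCR2 rose without HTZ1, where 3.42% of all entries fell and 2.16% rose. Without SWR1 the same genes fell after scaling, and GCR2 rose, where 3.71% of all entries fell and 0.801% rose. For prp43 DAmP 0 genes of these lists were called after scaling.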

How the data were processed

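Per the labels' protocols, RNA was extracted with hot phenol, depleted of ribosomal RNA and made into libraries with an Illumina TruSeq V2 kit. The authors deposited 1 table of RPKM values for 6662 entries, and the submitters' processing notes name CASAVA, STAR 2.4.0 and the sacCer3 build. The counter, annotation, strand setting and treatment of reads with several matches are not stated in the sources used here. Entries without a distinct name (3, holding 0.0203 to 0.129% of summed RPKM) were left out, and 1 value column that matches no sample was not used. Of 6659 entries 5910 matched the R64 annotation, which supplied sequences and positions. RPKM multiplied by gene length gave whole reads, within 0.1 read, for 99.8 to 100% of low values, and this gave the total of each library.

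Differences were fitted with limma 3.58.1 (R 4.3.3, empirical Bayes with a trend) to log2(RPKM + 1) of the 6495 entries with a mean of at least 1 RPKM, so a fold change of a low gene is understated. Calls were made below an adjusted p of 0.05 (Benjamini-Hochberg, all tested entries). Averaged comparisons set each deletion against the libraries of its own background with background as a term, and comparisons with wild type and interactions used 1 mean per genotype over 15 libraries. Libraries numbered alike in different genotypes were not treated as pairs. Genes were named by rule: all 36 members are accounted for, and those called in any comparison, the 3 highest and 3 lowest of each averaged comparison and both genes of each isozyme ratio are described. The members, lists and tests were chosen with earlier results of these data known. The fit was tested on simulated data with independent noise and a small part of the genes changed. That setting does not cover a comparison in which most entries move, as without XRN1. Alternatives were pseudocounts of 0.1 and 5, no filter, a mean of at least 10 RPKM, scaling to a common median log ratio, no trend, limma voom on recovered reads, a replicate block, leaving out each library, and, chosen after seeing the data, leaving out the 5 libraries rich in ribosomal DNA frames.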

Additional observations from a re-analysis of the deposited data

How the results depend on the processing

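Across the comparisons 66 differences of single members were called. Under 1322 alternatives of these, 1231 kept direction and call, 85 kept direction without a call, and 6 reversed. All 6 reversals came from scaling to the same median log ratio: without XRN1, GLK1 went from log2 0.94 to -0.049, PYK2 from 0.92 to -0.042, PDC5 from 0.87 to -0.046 and GPD1 from 0.69 to -0.30, and in xrn1 against wild type PYK2 went from 0.91 to -0.041 and PDC5 from 0.80 to -0.11. The median of all entries, log2 0.99 and 0.96 in these comparisons, is what that scaling removes.

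The number of members called without XRN1 was 26 to 30 under other settings and 28 to 32 with 1 library left out, beside 30. Without UPF1 it was 6 to 9 and 3 to 10, beside 8; it was 3 without swr1 or swr1 upf1 and 5 without upf1 2 or htz1 upf1. The 6 without the ribosomal-rich libraries hold 4 of the 8. Without HTZ1 it was 1 with a pseudocount of 5, 2 after scaling and 1 with voom, and 0 to 1 with 1 library left out (1 without wild type 1), beside 0. Without SWR1 it was 1 at a mean of at least 10 RPKM, which leaves PCK1 untested, and 0 to 2 with 1 library left out, beside 2. For prp43 DAmP it was 0 to 1 with 1 library left out, 1 without htz1 2 or without prp43 DAmP htz1. In upf1 against wild type it was 5 without the ribosomal-rich libraries and 2 to 5 with 1 library left out (5 without htz1 1, 4 without htz1 2), beside 2. The isozyme ratios that passed without XRN1 were 14 of 18 with either pseudocount, beside 13 of 17, because a pseudocount lets PDC1 to PDC6 be tested. With any of the 9 libraries of this comparison left out 0 passed, since fewer arrangements then remain. Leaving out a library outside the comparison does not change it, and 13 passed. Other causes were not tested.

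For libraries with the same number in different genotypes, the correlation of deviations over 6495 entries had no common sign. It was -0.27 for htz1 and xrn1, 0.13 for htz1 and upf1 and 0.19 for xrn1 and upf1. The wild type libraries were not part of this check. So few values cannot show whether libraries numbered alike share a batch. With a replicate block, xrn1 against wild type called 15 members (6 rose, 9 fell) and upf1 against wild type 1 (FBP1; ADH4 was lost at log2 1.23, adjusted p = 0.0868), and htz1 against wild type 0. The swr1 comparison has no value without the ribosomal-rich libraries, and interactions have none without their only double mutant. Depth limits PDC6 and PCK1 most.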
